A study of Mus musculus with 4 samples.

Results

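The transforming growth factor beta (TGF-beta) signalling core was measured in naive CD4+ T cells that lack TACI and in wild-type (WT) cells. It was taken as 10 genes chosen by name: the receptors Tgfbr1 and Tgfbr2, the Smads Smad2, Smad3, Smad4 and Smad7, and the repressors Ski, Skil, Tgif1 and Tgif2. They are 10 of the 22180 genes that had a probe set with exactly 1 gene symbol on an Affymetrix Mouse Gene 2.0 ST array. The probe set with the highest mean over the 4 arrays was to stand for each gene, but each of the 10 had a single such probe set, so no measured value entered that choice. The gene names and the comparison were picked with earlier results of this same comparison known, so the differences given here describe these genes and are not independent evidence about them.

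Naive cells were sorted as CD4+ with low CD44 and no CD25, among other surface markers, from spleens and lymph nodes of C57BL/6 mice. Tnfrsf13b encodes TACI, a member of the TNF receptor superfamily whose ligands are BAFF and APRIL. The groups were TACI-/- and WT, with 2 arrays each. The tissue was pooled, and the titles give the arrays of a genotype as biological replicates. No treatment is named in the labels, and the age and sex of the mice, how the TACI-/- allele was made and how many mice formed a pool are not given in the sources used here.

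TGF-beta binds a pair of membrane kinases, the type II receptor (Tgfbr2) and the type I receptor (Tgfbr1), and the type I receptor phosphorylates Smad2 and Smad3. These join the common partner Smad4 and act on genes in the nucleus. Smad7 is an inhibitory Smad that blocks the receptors, while Ski, Skil (SnoN) and the homeodomain proteins Tgif1 and Tgif2 repress Smad target genes, and Smad7 and Skil are themselves induced by TGF-beta as negative feedback. In T cells the pathway restrains activation and effector differentiation and supports regulatory T cells.

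Values are log2 expression units, so a difference of 1 unit is a 2-fold change. All 10 genes were above the limit for low values, 3.74 to 3.77 log2 units depending on the array, on all 4 arrays. The limit was set at each array's 40th percentile, over probe sets that have a single symbol. The 13782 genes at or above it on at least 2 arrays were tested with limma, a linear model whose variance is moderated across genes. Levels of different genes are not compared, because probe sets differ in brightness for reasons other than RNA amount. As bulk values, they cannot tell apart fewer cells that express a gene from less RNA per cell. The naive T cell markers Cd3e, a chain of the T cell receptor complex, and Cd4 lay between 10.45 and 11.58 on every array, whereas Cd8a lay below the limit on all 4. Cd8b1, the other CD8 chain, was above it on every array, at 6.11 and 5.73 on the TACI-/- arrays against 6.55 and 6.59 on the WT arrays, and so was the NK receptor gene Klrd1, at 4.76 and 5.06 against 5.79 and 5.76. Arrays have no sequencing depth, and the precision is limited by their number.

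The repressor Tgif1 had the largest difference of the 10 genes, 2.34-fold higher in TACI-/- cells. The repressor Skil and the inhibitory Smad7 came next, at 1.34-fold and 1.33-fold, and for all 3 the arrays of the genotypes were apart. The receptors and the signal-carrying Smads, Smad2, Smad3 and Smad4, differed by less than 1.2-fold. None of the 10 reached an adjusted p below 0.05 in limma, with the Benjamini-Hochberg method applied over all tested genes, a threshold that 0.138% of those genes passed. At an unadjusted limma p under 0.05, 3 of the 10 were higher (Tgif1, Skil and Smad7) and 0 lower, where the background over all tested genes was 8.78%, split into 4.94% higher and 3.84% lower. Of the 10, 9 had a positive difference, against 51.8% of all tested genes, and their median was 0.18, against 0.01 over all tested genes. Both TACI-/- arrays lay above both WT arrays for 7 of the 10, against 20.5% of the tested genes, and below both for 0, against 18.1%. Because earlier results of this comparison were known when the genes were chosen, nothing is read from these shares.

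**Figure D1:**
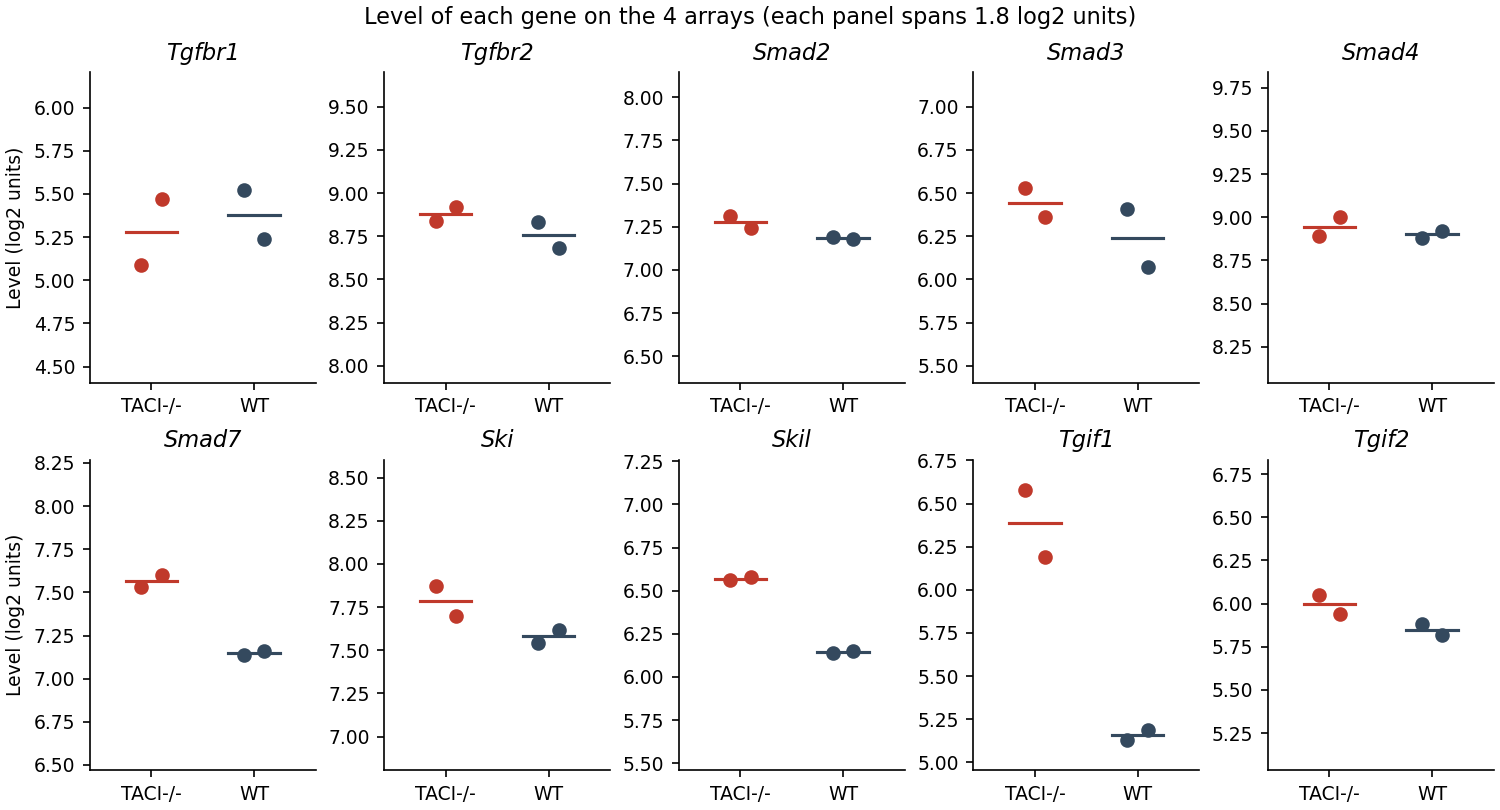
Level of each of the 10 genes (vertical axis, log2 units) on the 2 TACI-/- and the 2 WT arrays; points are arrays, horizontal bars are means, and each panel spans the same height on its own axis. Tgif1 at 6.58 and 6.19 against 5.13 and 5.19 shows the widest separation, Skil and Smad7 a narrow one, and Tgfbr1 overlaps.

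Tgif1 encodes a homeodomain repressor that binds Smad2 and Smad3 and recruits corepressors to their target genes. It was at 6.58 and 6.19 log2 units in TACI-/- replicates 1 and 2 and at 5.13 and 5.19 in WT replicates 1 and 2. Both TACI-/- arrays were high and lay at least 1.00 unit above both WT arrays, and the TACI-/- arrays differed more from each other (SD 0.27) than the WT arrays did (SD 0.04). The difference was 1.22 ± 0.17 (SE, n = 2 per genotype, 95% interval 0.83 to 1.62; limma unadjusted p = 0.000206, adjusted p = 0.0886). This placed Tgif1 as number 20 of 13782 tested genes by signed difference and as number 32 by p. With a prior variance that follows the mean level, its limma adjusted p was 0.0261, past the threshold, while in the other 11 alternatives it ranged from 0.0645 to 0.647. Without either TACI-/- array in turn the difference was 1.03 and 1.42, with limma adjusted p of 0.426 and 0.237.

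Tgif2, the close relative of Tgif1 and likewise a repressor of Smad activity, was at 6.05 and 5.94 on the TACI-/- arrays against 5.88 and 5.82 on the WT arrays. The arrays did not overlap, yet the gap between the genotypes was only 0.06 units. The difference of 0.15 ± 0.13 (SE, 95% interval -0.17 to 0.46, limma adjusted p = 0.817) left the direction undetermined. The difference of Tgif1 exceeded that of Tgif2 by 1.08 ± 0.15 (unmoderated SE, n = 2 per genotype). In an exact permutation test over the arrays its two-sided p was 0.333, which is the smallest that this test can give with 2 arrays against 2. For 1 further probe set, named for both Tgif2 and 5430405H02Rik, no gene was assigned.

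Start-site windows are shown for Tgif1, the gene with the largest difference of the 10, and for its paralog Tgif2. RefSeq (GRCm38.p6) lists 5 start sites for Tgif1 and 1 for Tgif2, and each window runs from 250 bases before to 50 after a start. Of the Tgif1 windows, the one with both motifs more than once is printed, chosen after the matches were seen. Capitals mark the Smad box (CAGAC, or its reverse complement) and the core letters bound by Tgif proteins (TGTCA, or its reverse complement).
Tgif1, the second start site, chr17:70851685-70851984, minus strand, GRCm38.p6: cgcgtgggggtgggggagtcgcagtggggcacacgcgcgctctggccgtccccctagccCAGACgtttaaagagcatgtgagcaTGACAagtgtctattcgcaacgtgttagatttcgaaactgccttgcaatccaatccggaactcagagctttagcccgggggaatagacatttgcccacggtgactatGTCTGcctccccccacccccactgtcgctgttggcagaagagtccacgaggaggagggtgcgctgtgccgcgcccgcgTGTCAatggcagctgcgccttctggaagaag
Tgif2, chr2:156839757-156840056, plus strand, GRCm38.p6: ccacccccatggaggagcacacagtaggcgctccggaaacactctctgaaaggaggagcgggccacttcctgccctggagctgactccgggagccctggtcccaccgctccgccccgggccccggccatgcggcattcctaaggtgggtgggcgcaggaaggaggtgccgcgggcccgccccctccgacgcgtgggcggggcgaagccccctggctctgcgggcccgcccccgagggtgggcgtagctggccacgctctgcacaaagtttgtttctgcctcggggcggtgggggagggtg
The Tgif1 window held 2 matches of the Smad box and 2 of the Tgif core, and the Tgif2 window held 0 of either. Over the 5 windows of Tgif1, 3 held a Smad box and 4 a Tgif core. Among all 32851 windows of the same length in the table, 49.6% held a Smad box and 45.4% a Tgif core, so either match is common.

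Of the 10 genes, 6 had a window in the RefSeq table that was used here, 11 windows in all. Skil had no window there, and Smad2, Smad4 and Smad7, which lie on chromosome 18, were left out of the search. No motif count given for the 11 windows covers these genes. The single windows of Smad3 and Ski held neither motif, that of Tgfbr2 held a Smad box, and 1 of the 2 windows of Tgfbr1 held both. The Smad palindrome (GTCTAGAC), the AP-1 site (TGANTCA) and the cyclic AMP response element (TGACGTCA), searched on both strands, had 0 matches in the 11 windows. They are rarer in all windows, at 0.213%, 7.81% and 1.79%. The palindrome contains no Smad box as spelled here, and the AP-1 and cyclic AMP patterns do not contain each other. Which Tgif1 start these cells used is not shown by 1 probe set per gene.

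Skil encodes SnoN, a corepressor that binds Smad4 with Smad2 or Smad3 and is removed by TGF-beta signalling before being induced by it. It was at 6.56 and 6.58 on the TACI-/- arrays against 6.14 and 6.15 on the WT arrays. Replicates agreed within 0.02 units and the genotypes were 0.41 units apart at the closest. The difference was 0.42 ± 0.13 (SE, 95% interval 0.12 to 0.72; limma unadjusted p = 0.0139, adjusted p = 0.445).

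Ski, the founding member of the same corepressor family, was at 7.87 and 7.70 on the TACI-/- arrays against 7.54 and 7.62 on the WT arrays. Both TACI-/- arrays were the higher ones, with a gap of 0.09 units. Its difference of 0.21 ± 0.14 (SE, 95% interval -0.12 to 0.53, limma adjusted p = 0.735) did not pass. The difference of Skil exceeded that of Ski by 0.21 ± 0.10 (unmoderated SE; exact permutation two-sided p = 0.333, again the smallest possible).

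Smad7, which targets the activated receptor for degradation, was at 7.53 and 7.60 on the TACI-/- arrays against 7.14 and 7.16 on the WT arrays. The arrays of the genotypes were 0.37 units apart at the closest, far more than the replicates differed (SD 0.05 and 0.02). The difference was 0.42 ± 0.13 (SE, 95% interval 0.11 to 0.72; limma unadjusted p = 0.0155, adjusted p = 0.464). Skil and Smad7 ranked 527 and 536 of the tested genes by signed difference. Leaving out 1 array at a time gave 0.41 to 0.43 for Skil and 0.38 to 0.45 for Smad7. The count of the 10 genes at an unadjusted limma p under 0.05 then stayed the same or fell, depending on the array. The share of all tested genes at that p is not given for these fits, so nothing is read from the change.

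**Figure D2:**
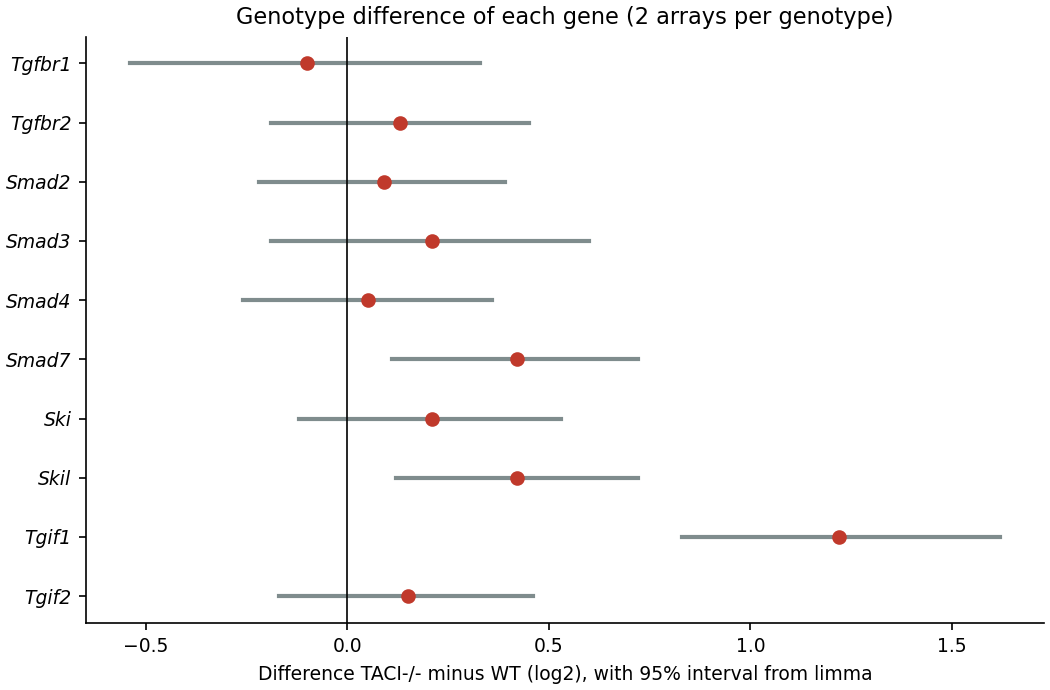
Difference TACI-/- minus WT of each of the 10 genes (horizontal axis, log2) with its 95% interval from the moderated linear model, 2 arrays per genotype. The intervals of Smad7, Skil and Tgif1 lie above 0 before any adjustment for the number of genes, and those of the other 7 genes contain 0.

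The receptor-regulated Smads carry the signal from the receptor. Smad2 was at 7.31 and 7.24 on the TACI-/- arrays against 7.19 and 7.18 on the WT arrays, a separation of 0.05 units at the closest. Its difference was 0.09 ± 0.13 (SE, 95% interval -0.22 to 0.39). Smad3, which unlike the main form of Smad2 binds DNA directly, was at 6.53 and 6.36 against 6.41 and 6.07, so the genotypes overlapped. Its difference was 0.21 ± 0.16 (SE, 95% interval -0.19 to 0.60). Smad4, the partner that TGF-beta and bone morphogenetic protein (BMP) signals share, was at 8.89 and 9.0 against 8.88 and 8.92 and overlapped too. Its difference was 0.05 ± 0.13 (SE, 95% interval -0.26 to 0.36), and the limma adjusted p of these 3 Smads lay between 0.787 and 0.958.

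The receptor pair showed no difference beyond its error. Tgfbr1, the type I kinase, was at 5.09 and 5.47 on the TACI-/- arrays against 5.52 and 5.24 on the WT arrays, with a difference of -0.10 ± 0.18 (SE, 95% interval -0.54 to 0.33, limma adjusted p = 0.925). The genotypes overlapped, and the sign turned without TACI-/- replicate 1 (0.09) or WT replicate 1 (0.04). Tgfbr2, the type II kinase that binds the ligand, was at 8.84 and 8.92 against 8.83 and 8.68, with a difference of 0.13 ± 0.13 (SE, 95% interval -0.19 to 0.45, limma adjusted p = 0.855). Its groups were apart by 0.01 units only. These intervals leave room for a change of either receptor in either direction.

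By the root mean square difference of the 4 array values, each gene centred on its own mean, the tested genes most like Tgif1 were Il2rb, Gadd45b and Fosl2. Il2rb is a chain of the receptors for interleukins 2 and 15, Gadd45b a stress-induced signalling protein and Fosl2 an AP-1 subunit. Gadd45b and Fosl2 also belong to the list of immediate early genes counted further below. Their distances from Tgif1 were 0.0621, 0.0697 and 0.08 log2 units, and their differences between the genotypes were 1.11, 1.31 and 1.07, with limma adjusted p of 0.0887 to 0.1. All of them, like Tgif1, were higher on TACI-/- replicate 1 than on replicate 2. Likeness in this order and in the genotype difference follows from choosing them by these values. For Tgfbr1 the nearest were Mgp, Olfr1085 and Sez6, at 0.0154, 0.0193 and 0.0197, genes with the same overlap of the genotypes. Sez6 lay below the limit for low values on 2 arrays, at 3.47 on TACI-/- replicate 1 and 3.63 on WT replicate 2. Over 4 arrays such likeness is weak, and it is given as a description.

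**Figure D3:**
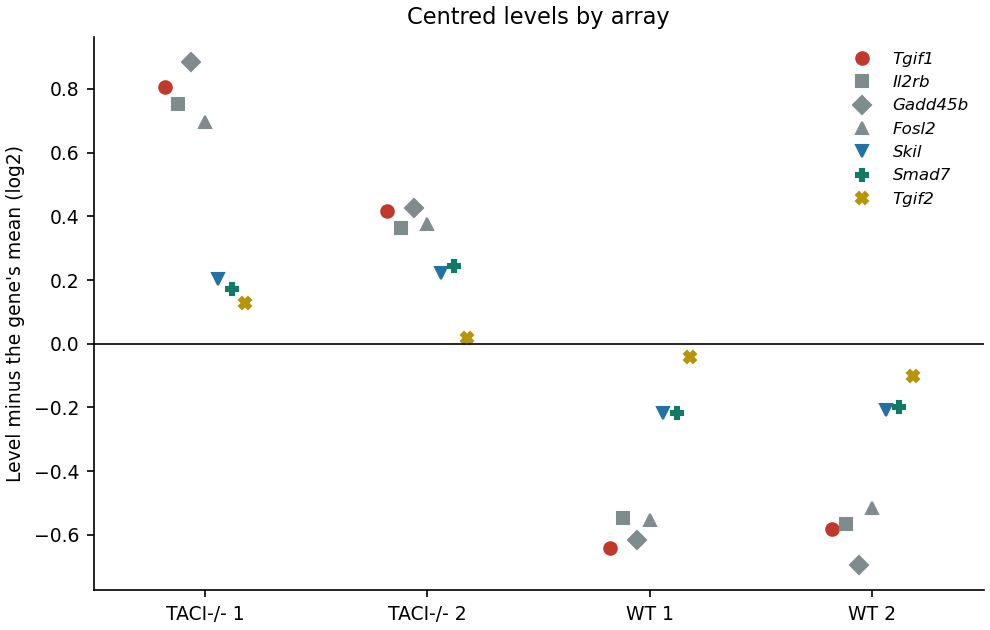
Level of each gene minus its own mean over the arrays (vertical axis, log2) on the 4 arrays, for Tgif1, the 3 genes with the nearest pattern (Il2rb, Gadd45b and Fosl2, grey), Skil, Smad7 and Tgif2. Tgif1 and its nearest genes, which were chosen for this likeness, stand higher on TACI-/- replicate 1 than on replicate 2. Skil and Smad7 have like values on both.

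Other genes of the pathway were taken from 8 lists written by role, with the 10 genes left out. Some genes are in more than 1 of these lists. They count once in the totals given here, and again in each list described below. Together they held 129 genes, of which 121 had a probe set of 1 symbol and 87 were tested. Of the 87, 1 rose past the adjusted threshold (Ctla4) and none fell, where 0.109% of all tested genes rose and 0.029% fell. At an unadjusted limma p under 0.05, 11 were higher and 1 lower, against 4.94% and 3.84% of all tested genes. The median difference of the 87 was 0.03, against 0.01 over all tested genes. The 12 became fewer when any 1 array was left out, and the share of all tested genes is not given for those fits.

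Ligands and their antagonists had 11 tested members of 21, with 1 higher and 0 lower at an unadjusted limma p under 0.05. Counted in either direction this was near the 8.78% of all tested genes, which split into 4.94% higher and 3.84% lower. The median was -0.01. Tgfb1, the main ligand made by T cells, was at 8.12 and 7.83 on the TACI-/- arrays against 7.93 and 7.99 on the WT arrays, a difference of 0.01 ± 0.15 (SE). The member with the lowest p was Nodal, an embryonic ligand, at 4.14 and 4.08 against 3.72 and 3.80, close to the limit for low values. Inha, the inhibin alpha chain, was at 4.25 and 4.02 against 4.68 and 4.29, and Fstl3, an activin binding protein, at 5.0 and 5.11 against 5.26 and 5.27. The ligand Tgfb3 lay below the limit on all 4 arrays. Of 8 tested genes that store or activate latent TGF-beta, 0 had an unadjusted limma p under 0.05. Among them Lrrc32 (GARP), which holds latent TGF-beta on regulatory T cells, differed by 0.26 ± 0.13 (SE) and lay below the limit on both WT arrays. Lrrc32 therefore entered the test only through the TACI-/- arrays. Furin, a convertase that cleaves the TGF-beta precursor, differed by 0.15 ± 0.16 (SE).

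The other receptors had 8 tested members of 12, 2 of them higher and 0 lower at an unadjusted limma p under 0.05 (4.94% and 3.84% of all tested genes), with a median of 0.21 against 0.01 over all tested genes. Bambi, a decoy receptor without a kinase that lowers TGF-beta signalling, was at 5.39 and 5.55 on the TACI-/- arrays against 4.94 and 4.56 on the WT arrays. The groups were apart, with a difference of 0.72 ± 0.17 (SE, limma adjusted p = 0.304). Bmpr1a, a type I receptor for BMPs, was at 4.07 and 3.91 against 3.69 and 3.40, below the limit on both WT arrays. Bmpr1a therefore entered the test, and the count of 2 higher, only through the TACI-/- arrays. Acvr1b, the activin type I receptor, was at 7.0 and 6.77 against 6.41 and 6.67 and differed by 0.34 ± 0.16 (SE). Of the other Smads, Smad1 and Smad5, which carry BMP signals, were tested and differed by -0.03 and -0.14, and the inhibitory Smad6 lay below the limit on all 4 arrays.

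Regulators of the receptors and Smads had 19 tested members of 21, with 2 higher and 0 lower at an unadjusted limma p under 0.05. Counted in either direction this was near the 8.78% of all tested genes, which split into 4.94% higher and 3.84% lower. The median was 0.00. Pmepa1, a TGF-beta-induced protein that sequesters receptor Smads, was at 5.25 and 5.09 against 4.79 and 4.77, a difference of 0.39 ± 0.13 (SE, limma adjusted p = 0.515). Ppp1r15a, also known as GADD34, brings a phosphatase to the receptor with Smad7 and is a stress gene as well. It differed by 0.68 ± 0.19 (SE, limma adjusted p = 0.38). The ubiquitin ligase Smurf2, a Smad7 partner, differed by 0.18 ± 0.14 (SE). Of 13 tested corepressors and coactivators, which include the Tgif and Ski partners Sin3a, Hdac1 and Ctbp1, 0 had an unadjusted limma p under 0.05, and the median was 0.02. Sin3a, Hdac1 and Ctbp1 differed by 0.03, -0.17 and 0.05. The 4 with the lowest p were Zeb1, Phc1, Sin3b and Crebbp. They differed by 0.33, 0.26, -0.22 and -0.15, with limma adjusted p of 0.614 to 0.82, and for Zeb1 and Crebbp the genotypes were apart. Among the relatives of Tgif1 and Tgif2 in the TALE homeobox family, 7 of 12 were tested, 0 were higher and 1 lower at an unadjusted limma p under 0.05, and the median was -0.13. That 1 was Pbx2, a partner of Hox proteins, at 4.59 and 4.27 against 4.83 and 5.09 (difference -0.53 ± 0.17, SE; limma adjusted p = 0.486).

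Genes that respond to TGF-beta in T cells or elsewhere had 22 tested members of 32 once the 10 genes were left out. At an unadjusted limma p under 0.05, 7 were higher and 0 lower (4.94% and 3.84% of all tested genes), with a median of 0.19 against 0.01 over all tested genes. Ctla4, an inhibitory receptor of T cells, passed over all genes, at 6.27 and 6.25 on the TACI-/- arrays against 4.6 and 4.79 on the WT arrays, 2.96-fold higher (limma adjusted p = 0.0246). It did not pass without any 1 of the 4 arrays (limma adjusted p from 0.182 to 0.285), nor with no filter (0.052) or no moderation of the variance (0.618). Foxp3, which TGF-beta helps to induce, differed by 0.58 ± 0.16, Ccr8 by 0.75 ± 0.15 and Eomes, which TGF-beta lowers, by 0.79 ± 0.16 (SE; limma adjusted p 0.256 to 0.354). The integrin gene Itgae, which TGF-beta is known to raise in T cells, lay below the limit on all 4 arrays. Members of this list are known to answer to other signals too, Ctla4, Ccr8 and Eomes among them, and the list holds genes that TGF-beta raises and genes that it lowers.

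**Figure D4:**
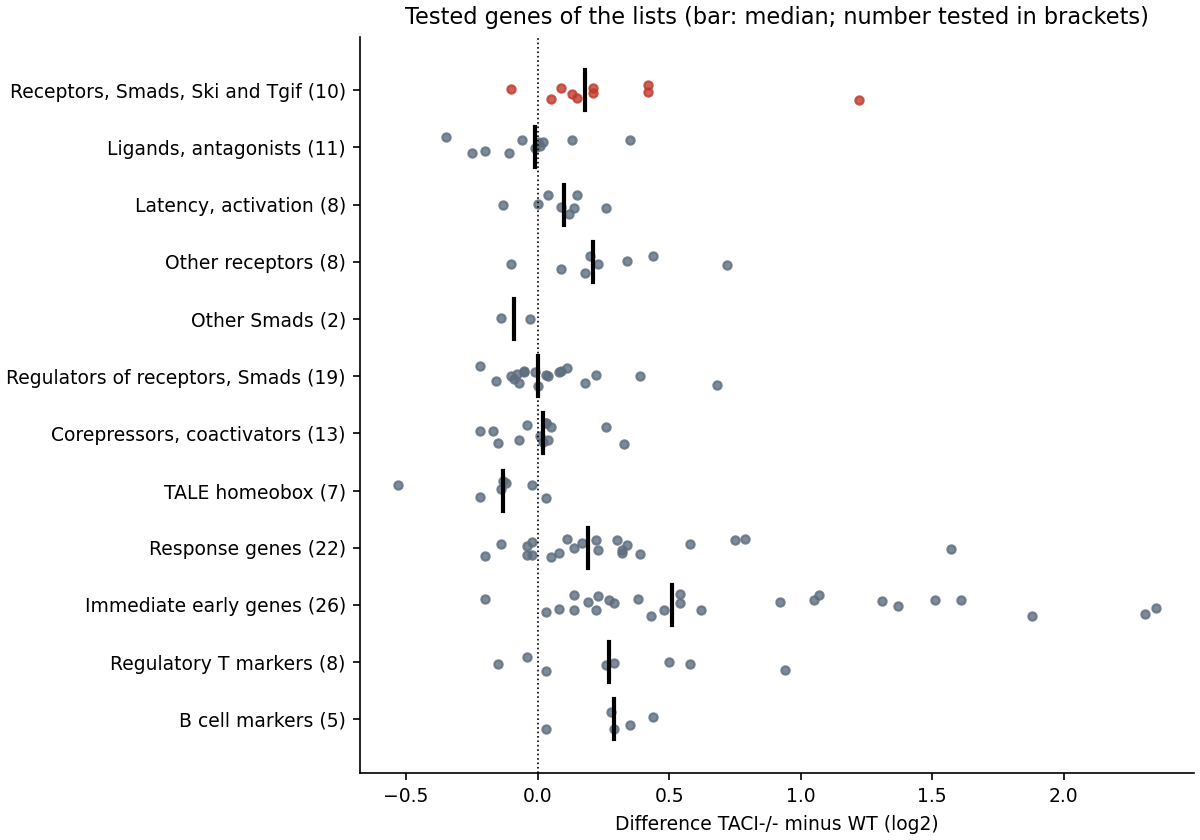
Difference TACI-/- minus WT (horizontal axis, log2) of each tested gene in the lists, 1 point per gene, with the list's median as a bar and the number tested in brackets; the 10 core genes are in red and left out of the other lists. The medians of the pathway lists lie between -0.13 (TALE homeobox) and 0.21 (other receptors), and that of the immediate early genes is 0.51.

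Lists not written for the TGF-beta pathway were counted beside Tgif1, Skil and Smad7. They share some genes with the pathway lists, among them Foxp3 and Lrrc32, which are also regulatory T cell markers. Of 26 immediate early genes, the first to be transcribed after a stimulus or during cell handling, 16 were higher and 0 lower at an unadjusted limma p under 0.05, against 4.94% and 3.84% of all tested genes, and the median difference was 0.51, against 0.01. Past the adjusted threshold 5 rose, against 0.109% of all tested genes: the nuclear receptors Nr4a2 and Nr4a3, the phosphatases Dusp1 and Dusp5, and the NF-kB inhibitor Tnfaip3. They did not pass in limma without any 1 of the arrays. The summed linear level of all 26 immediate early genes was 7853 to 9575 array units in TACI-/- cells and 5185 to 6004 in WT cells. Of 9 listed regulatory T cell markers 8 were tested, with Nrp1 below the limit on all arrays, and 6 had a positive and 2 a negative difference. At an unadjusted limma p under 0.05, 3 were higher and 0 lower, against 4.94% and 3.84% of all tested genes. The 3 were Foxp3, Ikzf2 and Tnfrsf18. Il2ra, which encodes the sorting marker CD25, was above the limit on every array. It was at 5.25 and 4.83 on the TACI-/- arrays against 4.85 and 4.65 on the WT arrays, so the genotypes overlapped. Izumo1r, Ikzf4 and Capg differed by 0.03, -0.04 and -0.15. Ikzf2 lay below the limit on both WT arrays, at 3.41 and 3.49, so it entered the test only through the TACI-/- arrays. Lrrc32, which is not among the 3, entered in the same way. The summed linear level of the regulatory T cell markers was 445 to 463 in TACI-/- and 355 to 399 in WT cells. Here and in the lists that follow, a sum takes every listed marker with a probe set of 1 symbol, also those not tested. Signal of genes near or below the limit for low values is therefore part of these sums. Of 5 tested B cell markers of 11, 1 (Bank1) was higher at an unadjusted limma p under 0.05, the summed level was 182 to 210 against 153 to 171, and Ms4a1, Ebf1 and Blk lay below the limit on all 4 arrays. CD8 T cell and NK markers had 3 tested members of 8, of which Cd8b1 and Klrd1 were lower at an unadjusted limma p under 0.05, with a summed level of 187 to 190 against 230 to 250, and Cd8a, Klrb1c, Klre1 and Gzma below the limit on all arrays. Of 4 tested myeloid and dendritic markers of 11, 1 (Lyz2) was lower at that p, the summed level was 133 to 135 against 146 to 148, and Cd14, S100a8, S100a9, Itgax and Flt3 lay below the limit on all arrays. Of 13 stromal, endothelial, red cell and platelet markers 9 were tested, and 1 (Itga2b) was higher at that p. The red cell genes Hba-a1, Hbb-bt and Alas2 had no probe set of 1 symbol, so no red cell marker was measured. The summed level was 681 to 768 against 684 to 698, which overlap, and Pf4 lay below the limit on all arrays. That sum includes Pecam1, at 8.95 and 9.21 log2 units against 9.04 and 9.06, while no other gene in it exceeded 5.36. Of 9 tested naive T cell markers of 12, 1 (Il7r) was lower at that p, and the summed level was 11119 to 11370 against 11918 to 12660. The part of these groups in the values of Tgif1, Skil and Smad7 was not tested.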

How the data were processed

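Total RNA of each sorted sample was hybridised to 1 array, and the titles gave the genotype. The deposited values are on a log2 scale, 1 per probe set and array. The submitters' processing notes name RMA and Partek but give neither versions nor roles; base 2 is taken from RMA and the range of the values, 0.944 to 13.2. RMA corrects background, gives the arrays 1 distribution and summarises the probes of a set, which can compress differences of dim genes.

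Of 41345 probe sets, 23521 had 1 symbol in the platform annotation. The model, fitted with limma 3.58.1 (R 4.3.3) over 13782 genes, had genotype as its only term (TACI-/- minus WT, two-sided, Benjamini-Hochberg adjustment), and SE are moderated unless stated. It was tested on simulated data. The p-values rest on the spread between these arrays, moderated by the spread of the other tested genes. As the tissue was pooled, they do not measure the spread between single mice. For each of the 10 genes, 9 or 10 of the 10 probe sets numbered next to it were on its chromosome.

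The 10 genes and all lists were chosen with earlier results of these data known. Genes were named by a rule: the 10 genes, the 3 nearest patterns of Tgif1 and Tgfbr1, up to 4 per pathway list by p and its genes past the threshold, defining markers, and markers at an unadjusted p under 0.05. Tgfb1, Tgfb3, Smad6, Itgae, Sin3a, Hdac1, Ctbp1 and the 5 immediate early genes past the threshold were named after their values were seen. So were Il2ra, Izumo1r, Ikzf4 and Capg. Alternatives were the low-value filter, centring, quantile normalization, the mean over probe sets, the variance model, the replicate block and leaving out each array.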

Additional observations from a re-analysis of the deposited data

How the results depend on the processing

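With 12 alternatives, Tgif1, Skil, Smad7, Ski, Smad2, Smad3, Tgfbr2 and Tgif2 kept their sign in each. For the genes whose groups do not overlap, leaving out an array could not turn the sign. Tgfbr1 ranged from -0.30 to 0.09 and Smad4 from -0.004 to 0.11 when 1 array was left out. The ranges without 1 array also spanned 0 for Smad1 (-0.24 to 0.18), Furin (-0.02 to 0.33), Lefty1 (-0.55 to 0.05), Pknox1 (-0.29 to 0.03), Pknox2 (-0.54 to 0.09), Mgp (-0.28 to 0.06), Olfr1085 (-0.27 to 0.06) and Sez6 (-0.33 to 0.09). Genes past the adjusted threshold numbered 19 in all, 3 with no filter (which adds tests), 46 with the trended prior variance, 0 with no moderation (where 3 of the 10 core genes had an unadjusted p under 0.05) and 0 in every fit without 1 array, with an unadjusted p under 0.05 for 1 to 3 of the 10. Of the 10, 1 passed with the trended prior variance (Tgif1), and 0 in the other alternatives. The count of other pathway genes at an unadjusted limma p under 0.05 was 12, and 6 to 10 without 1 array, with 6 without TACI-/- replicate 1 and 6 without WT replicate 2. With the replicate block, which rests on numbers alone since deviations of same-numbered arrays correlated at -0.03, 13 genes and 0 of the 10 passed, and Tgif1 had a limma adjusted p of 0.13. Leaving out an array leaves a lone sample that is assumed to vary like the other genotype. For the alternatives the share of all tested genes at an unadjusted p under 0.05 is not given, so their counts have no background. With 2 arrays per genotype, the median SE of 0.15 limits what can be called.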

Other observations

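A probe set that the annotation assigns to both 5430405H02Rik and Tgif2 was at 4.67 and 4.89 log2 units in TACI-/- cells and at 4.72 and 4.46 in WT cells, so the genotypes overlapped. Its difference of 0.19 stands beside 0.15 for the probe set of Tgif2 alone.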
